A study of Mus musculus with 15 samples.

Results

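The genes of cholesterol and fatty acid synthesis were examined in NIH3T3, a fibroblast line from mouse embryos, after a protein in them was made to unfold. The members were 32 genes chosen by name as enzymes of the pathways or as regulators of the SREBP transcription factors, not for their values here. Of these, 31 were in the tables of 20207 genes, and all 31 passed the filter on low counts. They comprised 18 sterol genes, 8 fatty acid genes and 5 regulators. The expression of Hmgcs1, which makes HMG-CoA, was not analysed here.

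All the cells carried a PiggyBac transgene for DD-sfGFP and had been sorted for high GFP fluorescence, so they were a selected pool. In DD-sfGFP an unstable variant of FKBP, the destabilizing domain, is joined to a fast-folding GFP, and its fold depends on a ligand, Shield-1 (S1). The controls (5 samples) were kept with S1, and the other groups were collected 45 min (3 samples), 135 min (3 samples) or 405 min (4 samples) after S1 was withdrawn. Withdrawal meant that purified FKBP, which binds the ligand, was put into the medium, with no change of medium, per the methods of the study. Cells with GFP alone were not analysed here, so within these 15 samples time in the medium and the unfolded domain cannot be told apart. The labels do not say whether replicates were separate cultures, so the p-values measure the spread between these samples, which may be technical.

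Cholesterol is built from acetyl-CoA by way of mevalonate, farnesyl diphosphate, squalene and lanosterol, and fatty acids are built from the same precursor by acetyl-CoA carboxylase and fatty acid synthase. Transcription of most of these enzymes is driven by the SREBP factors, which are held in the endoplasmic reticulum with Scap and the Insig proteins while sterol is plentiful. When sterol falls, Scap carries SREBP to the Golgi, where proteases release its active part. Fibroblasts in culture can take up lipid from serum and also make it, so these genes move with lipid supply.

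Libraries held 6652539 to 30258404 counts, and expression was compared as counts scaled to library size (CPM) with TMM factors. Markers of the labelled cell type were present, since the summed RPKM of 7 fibroblast genes was 1650 to 4550 over the 15 libraries, whereas epithelial genes summed to at most 0.34, endothelial genes to at most 0.29 and blood genes to at most 1.92. The blood genes, mainly Cd68 since Ptprc reached at most 0.07, summed to 1.3 to 1.92 at 405 min and 0 to 0.98 in controls. The adipocyte values were those of Fabp4 alone, at 1.27 to 3.47 at 405 min and 3.03 to 7.57 in controls. The defining adipocyte gene Adipoq was at 0 throughout, and Plin1 was not in the tables. The part of these markers in the results was not tested. One feature of the libraries touched these genes and is given first. The slope of log2 CPM on exonic GC content split the libraries into a set of 10 (library set 1, slopes of -0.72 to 0.03 per 10 points of GC) and a set of 5 (library set 2, slopes of 0.32 to 0.73). Library set 2 held control replicate 2, replicate 3 at 45 min, and replicates 1, 2 and 4 at 405 min. The set was read from the data and not from the labels, and which library preparation each sample had is not given in the sources used here. With the set as a covariate the common dispersion went from 0.102 to 0.049, and 18 of the 31 members differed between the sets, 15 of them higher in set 2. That was 58.1% of the members, against 50.1% of all genes tested. The results at 405 min are therefore given without and with that covariate.

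In the controls the members spanned a wide range of expression per length. The RPKM, which scales reads to gene length and library size, was 130 ± 10.7 (SD, n = 5) for Scd2, a stearoyl-CoA desaturase, 120 ± 43.1 for Idi1, the isopentenyl diphosphate isomerase, and 104 ± 76.3 for Fdps, which makes farnesyl diphosphate. The order of these 3 was not resolved by the spread. Sc4mol (named Msmo1 in newer RefSeq), which removes methyl groups from sterols, followed at 67.2 ± 26.2 and the desaturase Fads2 at 65.4 ± 20.8. At the low end were Dhcr7, which catalyses the last reduction to cholesterol, at 2.47 ± 1.74, the isomerase Ebp at 2.22 ± 1.51, Srebf1 at 2.06 ± 1.45 and the sterol reductase Tm7sf2 at 1.56 ± 1.24, again without separation between neighbours. The deposited RPKM values of control replicate 3, the shallowest library, summed to 159763.3 over all genes against 261684.4 to 301653.8 in the other controls.

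**Figure D1:**
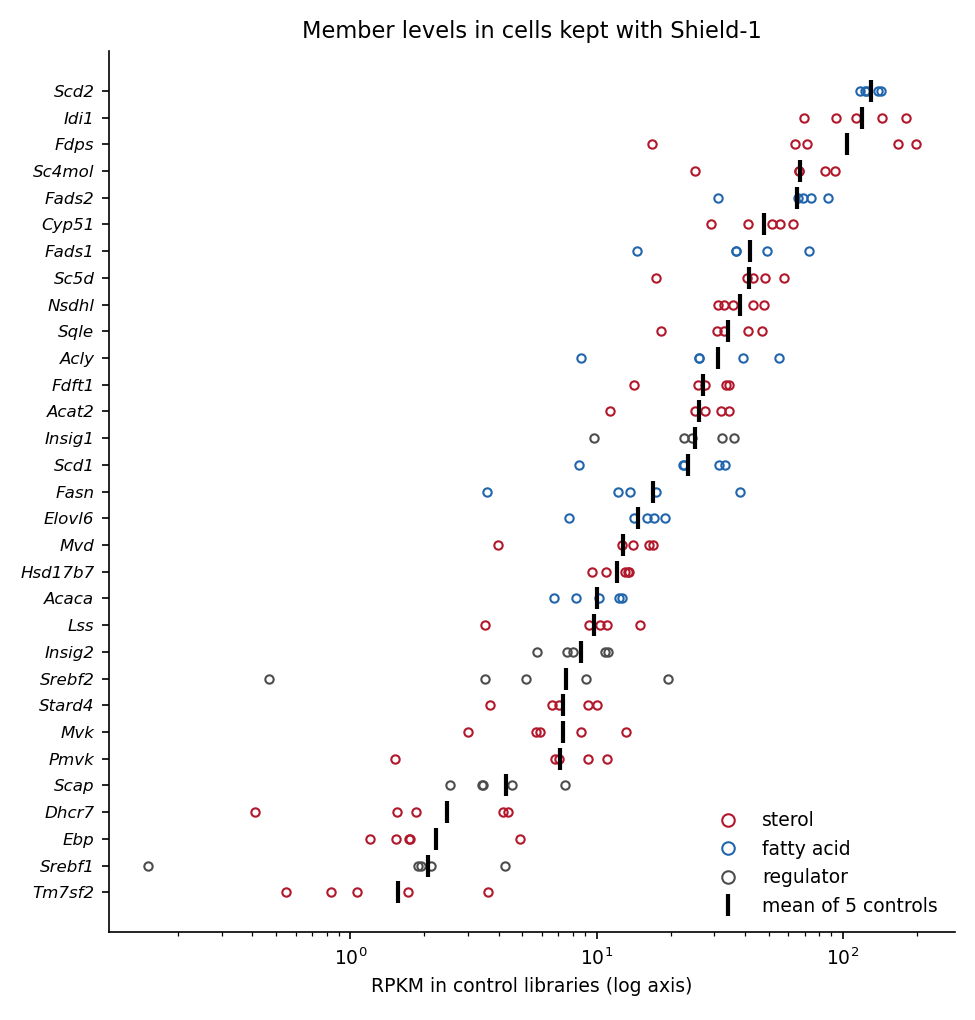
RPKM of the 31 members in the 5 control libraries on a log axis, with each circle a library, colour the class and the black bar the mean. Means run from 1.56 for Tm7sf2 to 130 for Scd2.

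At 45 min after S1 withdrawal no member passed the test (edgeR quasi-likelihood test, Benjamini-Hochberg adjusted p under 0.05 over 10276 genes). The background was the same, since 0% of the genes tested were called in either direction. DESeq2 also called 0 members, and so did edgeR with the library set as a covariate, where 0.0292% of all genes were higher and 0.00973% lower. A single member, Insig2, had an unadjusted p under 0.05, against 3.55% of all genes. Insig2, which retains Scap in the endoplasmic reticulum, had a log2 fold change of -0.97 (SE 0.35, adjusted p = 0.698). With the covariate it was -0.82 (SE 0.31, adjusted p = 0.488). The median log2 fold change was 0.11 for the sterol genes, 0.11 for the fatty acid genes and 0.02 for all genes, and 0.06, 0.09 and 0.01 with the covariate.

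At 135 min, again, no member was called in the fit of groups alone, where 0.564% of all genes were called higher and 0.895% lower. At an unadjusted p under 0.05 there were 2 members, Sqle and Insig2, both lower, against 11.9% of all genes. The class medians were -0.15 for the sterol genes and 0.14 for the fatty acid genes, against -0.06 for all genes, and with the covariate they were -0.11, 0.22 and -0.01. DESeq2 called Insig2 lower (3.23% of the members, against 2.62% of all genes).

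With the library set as a covariate, 1 member was called higher and 1 lower at 135 min, against 3.06% and 4.88% of all genes. Fasn, the fatty acid synthase, was at 296, 702, 145, 265 and 309 CPM in control replicates 1 to 5 and at 480, 467 and 482 CPM at 135 min. Only control replicate 2, of library set 2, lay above the 135-min samples. The log2 fold change of Fasn was 0.47 (SE 0.43, adjusted p = 0.712) for groups alone, 0.87 (SE 0.20, adjusted p = 0.0131) with the covariate and 0.91 (SE 0.21, adjusted p = 0.0364) within library set 1. Insig2 was at 20, 21.8 and 25.2 CPM at 135 min, below its controls, which were at 40, 25.8, 107, 42.4 and 48.2 CPM. Its log2 fold change was -1.23 (SE 0.35, adjusted p = 0.127) for groups alone and -1.29 (SE 0.31, adjusted p = 0.019) with the covariate. Mvk, Sqle and Elovl6 were likewise below all 5 controls in all 3 samples at 135 min, as were 4.75% of all genes, and no member was above all controls, as were 4.79%.

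At 405 min 9 of the 31 members (29%) had fallen and 0 had risen, against 13.4% of all genes lower and 9.99% higher. Of the sterol genes 7 of 18 (38.9%) fell, namely Idi1, Cyp51, Sc4mol, Nsdhl, Hsd17b7, Sc5d and Stard4. Among the fatty acid genes 1 of 8 (12.5%) fell, the elongase Elovl6, and among the regulators 1 of 5 (20%), Insig2. At an unadjusted p under 0.05 there were 13 members, against 41.1% of all genes, and of these members Pmvk, Ebp and Srebf1 were higher. DESeq2 called Pmvk and Srebf1 higher, or 6.45% of the members against 14% of all genes. The count of 0 rising members rested on single libraries: without control replicate 2 there were 7 (Pmvk, Fdps, Ebp, Acly, Fasn, Srebf1 and Srebf2), or 22.6% of the members against 24.5% of all genes. Without replicate 3 at 405 min there were 4 (Ebp, Fasn, Srebf1 and Scap), or 12.9% against 14.6% of all genes. Both shares were near the background.

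With the library set as a covariate 10 members (32.3%) were lower and 0 higher at 405 min, against 6.87% and 6.17% of all genes. Idi1, Cyp51, Sc4mol, Hsd17b7, Sc5d, Stard4 and Elovl6 were called in both fits, Nsdhl and Insig2 were called for groups alone, and Mvd, Sqle and Scd1 were called with the covariate. The sterol genes had a median log2 fold change of -0.20 for groups alone and -0.47 with the covariate, with 14 of 18 negative in the latter. The fatty acid genes had medians of 0.03 and -0.20. The regulators had medians of 0.50 and -0.07. For all genes the medians were -0.00 and -0.01.

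**Figure D2:**
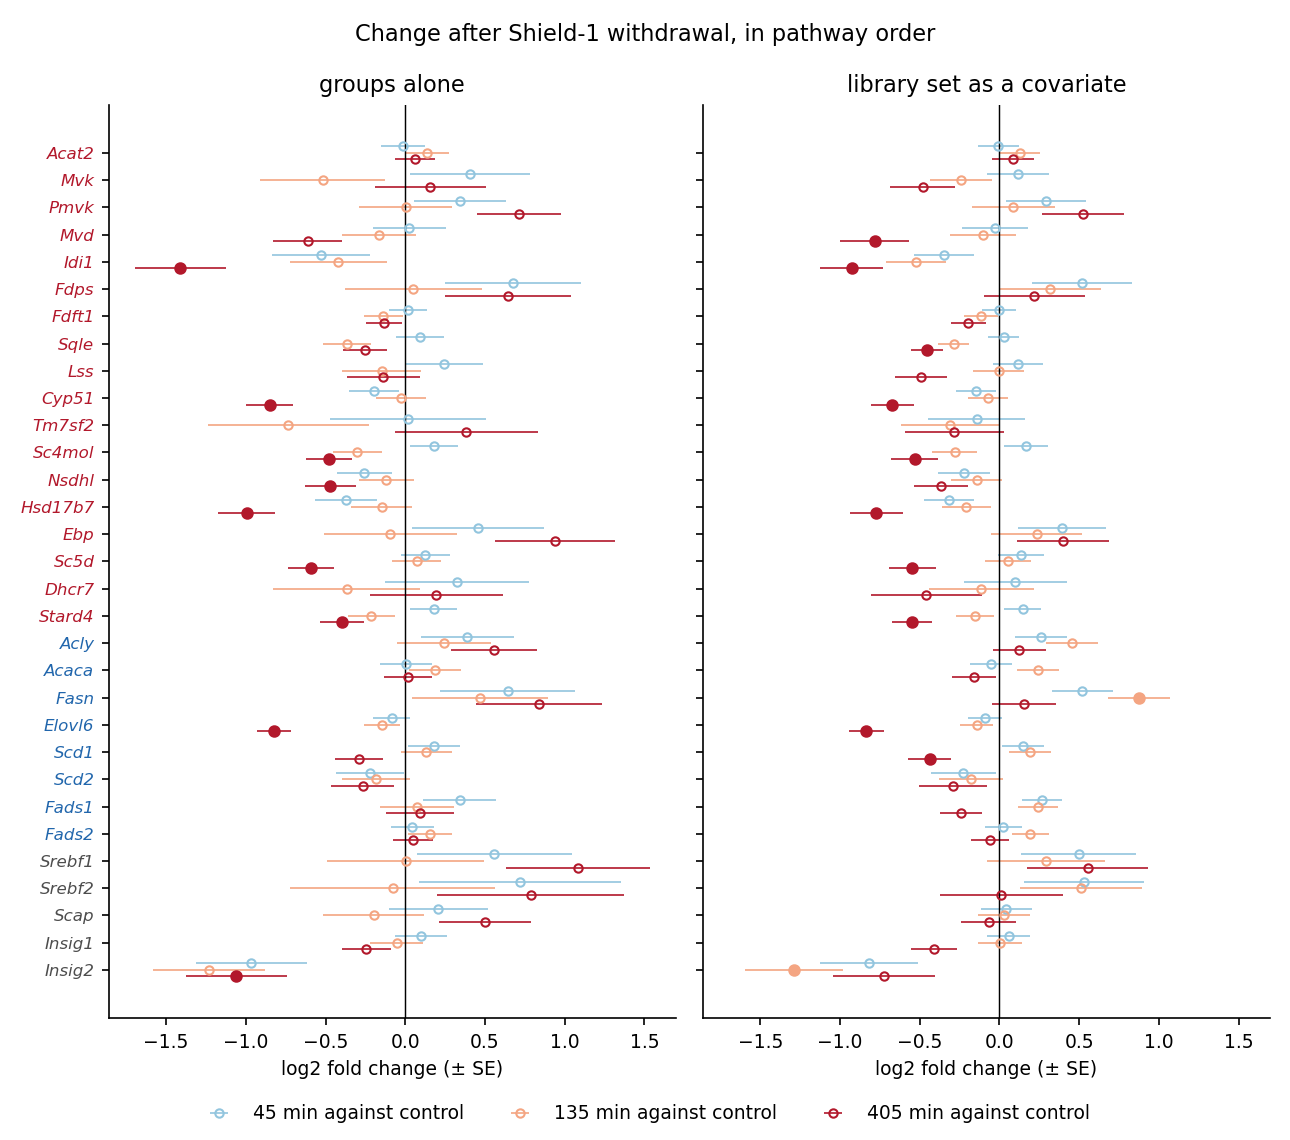
Log2 fold change against control (± SE) of the 31 members in pathway order at 45, 135 and 405 min, for groups alone (left) and with the library set as a covariate (right). Filled points passed the test, names are coloured red for sterol genes, blue for fatty acid genes and grey for regulators, and at 405 min 9 points on the left and 10 on the right are filled, all below 0.

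Among the early enzymes, Idi1 makes dimethylallyl diphosphate, the starter unit of isoprenoid chains. It was at 604, 320, 944, 776 and 795 CPM in control replicates 1 to 5, at 448, 593 and 389 CPM at 45 min, at 449, 516 and 577 CPM at 135 min, and at 178, 264, 381 and 213 CPM at 405 min. The samples at 405 min lay below the controls except that control replicate 2, the control of library set 2, was under replicate 3 at 405 min. Idi1 was 2.66-fold lower at 405 min (log2 fold change -1.41, SE 0.29, adjusted p = 0.00445). With the covariate it was 1.9-fold lower (log2 fold change -0.93, SE 0.20, adjusted p = 0.00539), and within library set 2 the log2 fold change was -0.56 (SE 0.24, adjusted p = 0.239).

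None of the other early enzymes passed the test in the fit of groups alone. Mvd, which decarboxylates mevalonate diphosphate just before Idi1 acts, averaged 46.5 ± 10.8 CPM (SD, n = 5) in controls and 30.5 ± 4.56 CPM (n = 4) at 405 min. Its log2 fold change was -0.61 (SE 0.22, adjusted p = 0.0523) for groups alone and -0.78 (SE 0.21, adjusted p = 0.0242) with the covariate. Without the covariate Mvd was called lower by DESeq2, and by edgeR with DESeq2 scaling or with another filter on low counts. It was not called without a filter or with the compared groups only. Pmvk, the phosphomevalonate kinase, was at 17.5, 24.2, 7.15, 18.2 and 19.7 CPM in controls and at 30.3, 27.3, 27.3 and 29.5 CPM at 405 min. Every sample at 405 min was above every control, as for 6.75% of all genes, but the log2 fold change of 0.71 (SE 0.27, adjusted p = 0.0624) did not pass the test, nor did that of 0.52 (SE 0.26, adjusted p = 0.197) with the covariate. The log2 fold change was 0.06 (SE 0.13) for the thiolase Acat2, 0.16 (SE 0.35) for the mevalonate kinase Mvk and 0.65 (SE 0.39) for Fdps. With the covariate it was 0.08 (SE 0.13) for Acat2, -0.48 (SE 0.20, adjusted p = 0.134) for Mvk, on the other side of 0, and 0.22 (SE 0.32) for Fdps. None of these passed in either fit.

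Squalene and lanosterol are formed by Fdft1, Sqle and Lss. Fdft1, whose annotated span overlaps Ctsb so that reads could be shared, averaged 171 ± 8.51 CPM in controls and 155 ± 11.2 CPM at 405 min, with a log2 fold change of -0.14 (SE 0.11, adjusted p = 0.362) for groups alone and -0.20 (SE 0.11, adjusted p = 0.273) with the covariate. Sqle averaged 206 ± 20.6 CPM in controls, 219 ± 54.5 at 45 min, 160 ± 2.85 at 135 min and 172 ± 15.8 at 405 min. Its log2 fold change at 405 min was -0.26 (SE 0.14, adjusted p = 0.172) for groups alone and -0.46 (SE 0.10, adjusted p = 0.00703) with the covariate. For Lss the values were -0.14 (SE 0.23) and -0.49 (SE 0.16, adjusted p = 0.0604).

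The enzymes that trim lanosterol follow. Cyp51, the lanosterol demethylase, was at 489, 334, 518, 524 and 489 CPM in controls, at 410, 457 and 367 CPM at 45 min, at 429, 473 and 487 CPM at 135 min, and at 250, 302, 265 and 226 CPM at 405 min. All 4 samples at 405 min were below all controls, and the 135-min samples lay within the control range. Cyp51 was 1.8-fold lower at 405 min (log2 fold change -0.85, SE 0.15, adjusted p = 0.00161), and the log2 fold change was -0.67 (SE 0.14, adjusted p = 0.00336) with the covariate. Within library set 1 it was -0.94 (SE 0.16, adjusted p = 0.017), where 405 min had a lone sample assumed to vary like the other groups. Within library set 2, with a lone control, it was -0.38 (SE 0.23, adjusted p = 0.442).

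Hsd17b7, the ketosterol reductase of the demethylation complex, was at 129, 92.1, 178, 134 and 111 CPM in controls, at 108, 107 and 83.3 CPM at 45 min, at 112, 124 and 112 CPM at 135 min, and at 63.8, 73, 69.6 and 52 CPM at 405 min. All 4 samples at 405 min were below all controls. Hsd17b7 was 1.99-fold lower (log2 fold change -0.99, SE 0.18, adjusted p = 0.0022), and with the covariate 1.71-fold lower (log2 fold change -0.77, SE 0.17, adjusted p = 0.00543).

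Sc5d, the desaturase that acts near the end of the pathway, was at 205, 195, 154, 194 and 226 CPM in controls, at 240, 199 and 199 CPM at 45 min, at 189, 204 and 223 CPM at 135 min, and at 103, 151, 139 and 124 CPM at 405 min. The highest sample at 405 min was just under the lowest control. The log2 fold change was -0.59 (SE 0.14, adjusted p = 0.0117) for groups alone and -0.55 (SE 0.15, adjusted p = 0.0228) with the covariate. It was -0.49 (SE 0.22, adjusted p = 0.293) within library set 1 and -0.64 (SE 0.23, adjusted p = 0.159) within library set 2.

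Sc4mol was at 263, 286, 187, 264 and 304 CPM in controls, at 298, 280 and 309 CPM at 45 min, at 220, 197 and 218 CPM at 135 min, and at 160, 220, 184 and 185 CPM at 405 min. The samples at 135 and 405 min were below 4 of the 5 controls, and control replicate 3 lay among them. The log2 fold change at 405 min was -0.48 (SE 0.14, adjusted p = 0.0282), and -0.53 (SE 0.15, adjusted p = 0.0241) with the covariate. The call was lost in 5 of the 15 fits that left out a library, namely those without control replicates 1, 4 or 5 or replicates 1 or 4 at 405 min (highest adjusted p = 0.0986).

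Nsdhl, the sterol dehydrogenase that works with Sc4mol and Hsd17b7, was at 159, 147, 281, 209 and 191 CPM in controls, at 158, 173 and 165 CPM at 45 min, at 173, 178 and 194 CPM at 135 min, and at 145, 147, 141 and 136 CPM at 405 min. The samples at 405 min were at or under the lowest control, control replicate 2. The log2 fold change was -0.47 (SE 0.16, adjusted p = 0.0464). With the covariate it was -0.37 (SE 0.17, adjusted p = 0.173), and the call was kept in 2 of the 15 fits that left out a library, those without control replicates 1 or 2. Within library set 2 the log2 fold change was -0.06 (SE 0.21, adjusted p = 0.934).

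Stard4, a soluble carrier that moves sterol between membranes, was at 42.8, 55.5, 44.6, 45.8 and 49.5 CPM in controls, at 51.9, 53.5 and 56.2 CPM at 45 min, at 38.8, 43.2 and 41.4 CPM at 135 min, and at 40.9, 36.8, 28.9 and 38.2 CPM at 405 min. All 4 samples at 405 min were below all controls. The log2 fold change was -0.40 (SE 0.14, adjusted p = 0.047) for groups alone and -0.55 (SE 0.12, adjusted p = 0.00781) with the covariate. For groups alone the call was kept only in the fit without control replicate 3 of the 15 that left out a library.

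The remaining sterol genes had low counts and wide spreads. Ebp averaged 8.64 ± 4.68 CPM in controls and 16.5 ± 6.17 CPM at 405 min, and its log2 fold change was 0.94 (SE 0.38, adjusted p = 0.0808), and 0.40 (SE 0.29, adjusted p = 0.401) with the covariate. Dhcr7 was at 0.19 (SE 0.42) on the log2 scale for groups alone and -0.46 (SE 0.35) with the covariate, and Tm7sf2 at 0.38 (SE 0.45) and -0.28 (SE 0.31), so the fits placed both on opposite sides of 0 and neither passed. Tm7sf2 also shares part of its span with another gene.

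Cyp51, Hsd17b7, Sc5d, Stard4 and Elovl6 were thus the members whose 4 samples at 405 min all lay below all 5 controls, a pattern shown by 6.43% of all genes.

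**Figure D3:**
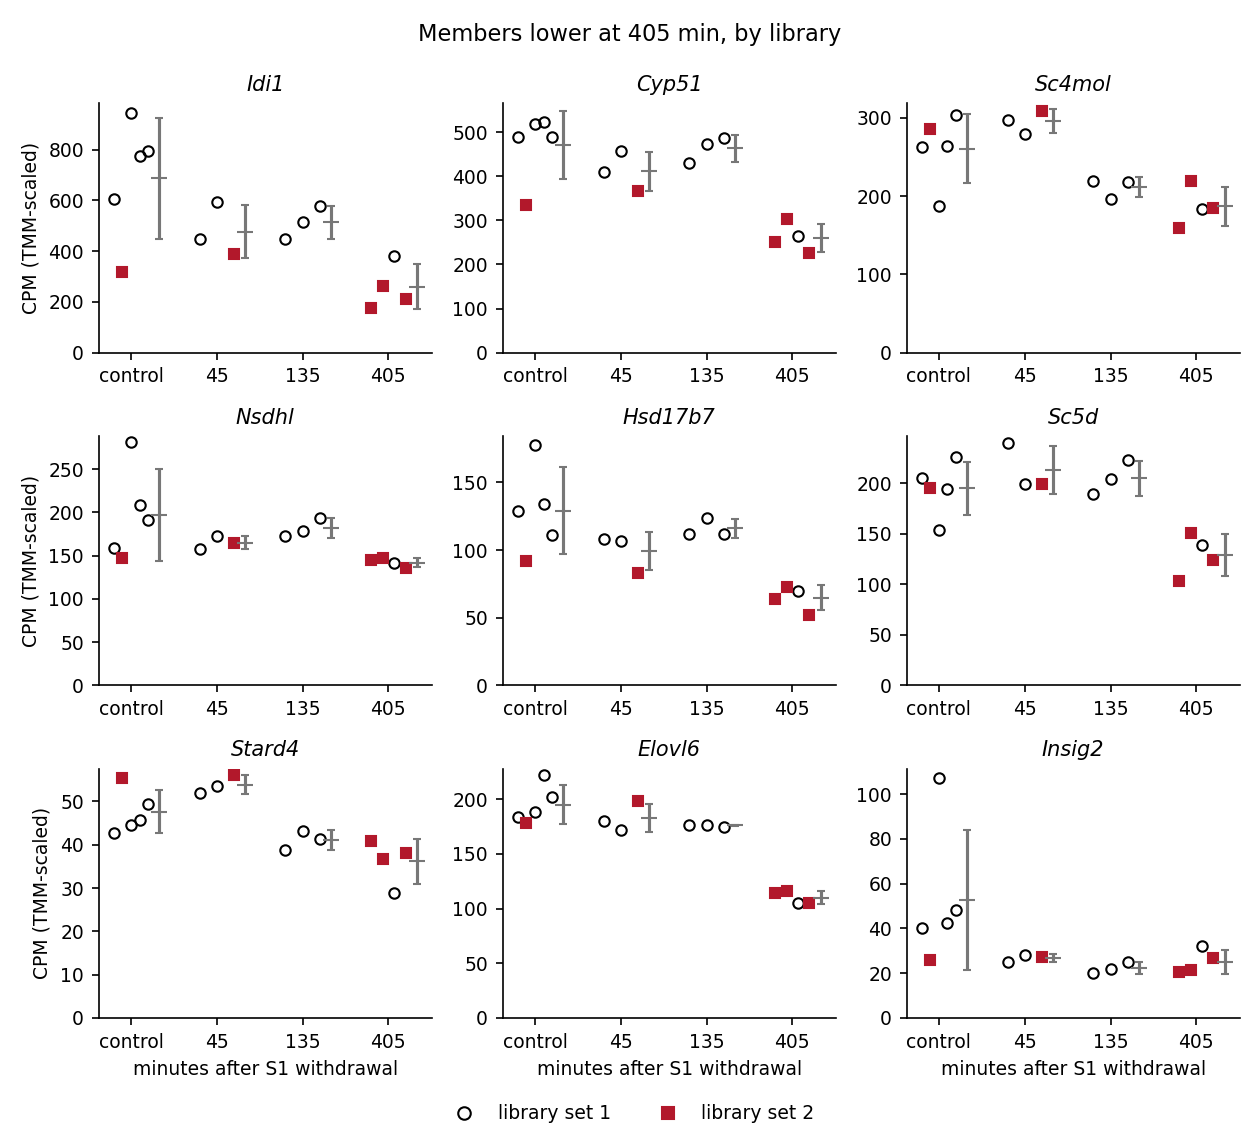
TMM-scaled CPM of the 9 members called lower at 405 min, by group, with open circles for libraries of set 1, red squares for libraries of set 2 and grey bars for the mean ± SD. The controls of Elovl6 span 178 to 222 CPM and its samples at 405 min 105 to 116 CPM.

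Of the fatty acid genes, Elovl6 alone was called for groups alone. Elovl6, which lengthens palmitate to stearate, was at 184, 178, 188, 222 and 202 CPM in controls, at 180, 172 and 198 CPM at 45 min, at 176, 176 and 175 CPM at 135 min, and at 114, 116, 105 and 105 CPM at 405 min. All 4 samples at 405 min were below all 11 other libraries. Elovl6 was 1.77-fold lower (log2 fold change -0.82, SE 0.11, adjusted p = 0.000212), and with the covariate 1.79-fold lower (log2 fold change -0.84, SE 0.11, adjusted p = 0.000115). Within library set 1 its log2 fold change was -0.93 (SE 0.17, adjusted p = 0.0205) and within library set 2 it was -0.68 (SE 0.21, adjusted p = 0.0815).

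The enzymes that make palmitate did not pass the test at 405 min. Fasn was at 901, 631, 282 and 643 CPM at 405 min, with replicate 3, the library of set 1, at 282 CPM. Its log2 fold change was 0.84 (SE 0.39, adjusted p = 0.122) for groups alone and 0.15 (SE 0.20, adjusted p = 0.667) with the covariate. Acly, which supplies cytosolic acetyl-CoA, had log2 fold changes of 0.56 (SE 0.27, adjusted p = 0.132) and 0.13 (SE 0.17, adjusted p = 0.668). Acaca, the acetyl-CoA carboxylase, had 0.02 (SE 0.15, adjusted p = 0.938) and -0.16 (SE 0.14, adjusted p = 0.492).

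The desaturases put double bonds into fatty acids. Scd1 averaged 242 ± 49.6 CPM in controls and 198 ± 17.8 CPM at 405 min, with a log2 fold change of -0.29 (SE 0.15, adjusted p = 0.151) for groups alone and -0.44 (SE 0.14, adjusted p = 0.0444) with the covariate. Scd2 was at 1410, 1450, 2730, 1480 and 1360 CPM in controls and at 1680, 1410, 1210 and 1300 CPM at 405 min, with overlapping groups and a log2 fold change of -0.27 (SE 0.20, adjusted p = 0.304), and -0.29 (SE 0.22, adjusted p = 0.411) with the covariate. Scd1 and Scd2, like Fads1 and Fads2, are paralogs that could share reads, so the values of these 4 are less certain. Fads1 had a log2 fold change of 0.09 (SE 0.21, adjusted p = 0.751) for groups alone and -0.24 (SE 0.13, adjusted p = 0.246) with the covariate. For Fads2 it was 0.05 (SE 0.13, adjusted p = 0.786) and -0.06 (SE 0.12, adjusted p = 0.796), so the fits placed both genes on opposite sides of 0.

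The regulators set how much active SREBP a cell has. Insig2 was at 25, 28.1 and 27.4 CPM at 45 min and at 20.5, 21.4, 32.1 and 26.7 CPM at 405 min, and the controls given above ranged from 25.8 to 107 CPM. The control of library set 2 lay within the range at 405 min, and the other 4 controls above it. Its log2 fold change was -1.06 (SE 0.32, adjusted p = 0.0287) for groups alone, -0.72 (SE 0.32, adjusted p = 0.152) with the covariate and -0.19 (SE 0.25, adjusted p = 0.78) within library set 2. The call was lost without any of the replicates 1, 2 or 4 at 405 min. Insig1, which acts like Insig2, had log2 fold changes of -0.24 (SE 0.15, adjusted p = 0.232) and, with the covariate, -0.41 (SE 0.15, adjusted p = 0.0753).

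Srebf1 and Srebf2, which encode the SREBP factors, separated by library set. Srebf2 was at 51.2, 166, 8.72, 34.9 and 73.7 CPM in controls, at 72.5, 57.7 and 202 CPM at 45 min, at 64.1, 61.2 and 65.8 CPM at 135 min, and at 166, 104, 52 and 142 CPM at 405 min. All 5 libraries of set 2 lay at 104 to 202 CPM and all 10 of set 1 at 8.72 to 73.7 CPM, whatever the time. The same separation held for 8 members (Fdps, Tm7sf2, Ebp, Acly, Fasn, Srebf1, Srebf2 and Scap), all higher in set 2, against 15.6% of all genes higher and 12.5% lower in set 2. Srebf1, which overlaps Rai1, had a log2 fold change at 405 min of 1.08 (SE 0.45, adjusted p = 0.0871) for groups alone and 0.55 (SE 0.38, adjusted p = 0.368) with the covariate. For Srebf2 these were 0.79 (SE 0.59, adjusted p = 0.313) and 0.01 (SE 0.38, adjusted p = 0.987). For Scap, the escort protein, they were 0.50 (SE 0.29, adjusted p = 0.195) and -0.07 (SE 0.17, adjusted p = 0.837).

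The samples at 405 min were also compared with those at 135 min, all of which were of library set 1. Of the members 4 were lower (Cyp51, Hsd17b7, Sc5d and Elovl6) and 0 higher, against 2.82% and 2.24% of all genes. The log2 fold changes were -0.83 (SE 0.16, adjusted p = 0.0122) for Cyp51, -0.85 (SE 0.20, adjusted p = 0.0266) for Hsd17b7, -0.67 (SE 0.16, adjusted p = 0.0299) for Sc5d and -0.67 (SE 0.12, adjusted p = 0.00873) for Elovl6. With the covariate Cyp51 (-0.60, SE 0.16, adjusted p = 0.0456), Elovl6 (-0.69, SE 0.13, adjusted p = 0.00829) and Scd1 (-0.63, SE 0.16, adjusted p = 0.0412) were lower and 0 members higher, against 2.01% and 1.66% of all genes. Sc5d (-0.60, SE 0.18, adjusted p = 0.0747) and Hsd17b7 (-0.57, SE 0.19, adjusted p = 0.128) did not pass there. At an unadjusted p under 0.05 there were 8 members for groups alone, against 27.6% of all genes, and of these members Pmvk and Ebp were higher. DESeq2 called 0 members higher and 5 lower (16.1%), against 7.91% and 6.72% of all genes. All samples at 405 min lay below all those at 135 min for 7 members (Idi1, Cyp51, Nsdhl, Hsd17b7, Sc5d, Elovl6 and Scd1) and above them for 2 (Pmvk and Fdps), against 17.6% and 19.2% of all genes. Without replicate 1 or replicate 2 at 135 min 0 members were called. Calls over all genes dropped as well, to 0.185% higher and 0.263% lower without replicate 1, and 0.185% and 0.224% without replicate 2. With an offset for GC content in each library 4 members (12.9%) were lower, namely Mvd, Idi1, Cyp51 and Hsd17b7, against 4.41% of all genes. Sc5d and Elovl6 were not called there.

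GC content moved with these results. The 9 members called lower at 405 min had exonic GC contents of 41.5% to 46.2%, and they were the only members in that range, the 31 members running from 41.5% to 59.3% and the genes tested having a median of 49.1%. Among all 2355 genes in the same range 20.8% were called lower for groups alone. With the covariate 9.81% of those genes were called lower, and 7 of the 9 members were. The range was set by members already called lower in the same libraries, so the shares of members and of all genes in it cannot be compared. Over the 31 members, exonic GC and the log2 fold change at 405 min had a Pearson correlation of 0.71 for groups alone, 0.56 with the covariate and 0.30 after an offset for GC in each library. Over 9853 genes the same correlations were 0.43, 0.16 and -0.02. These are descriptions across genes measured in the same libraries. With that GC offset 7 members (22.6%) were lower, against 15.9% of all genes, of which Idi1, Cyp51, Hsd17b7, Elovl6 and Insig2 were also called for groups alone, while Mvd and Fads2 were added. The part of GC content in the differences of single members was not tested further.

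**Figure D4:**
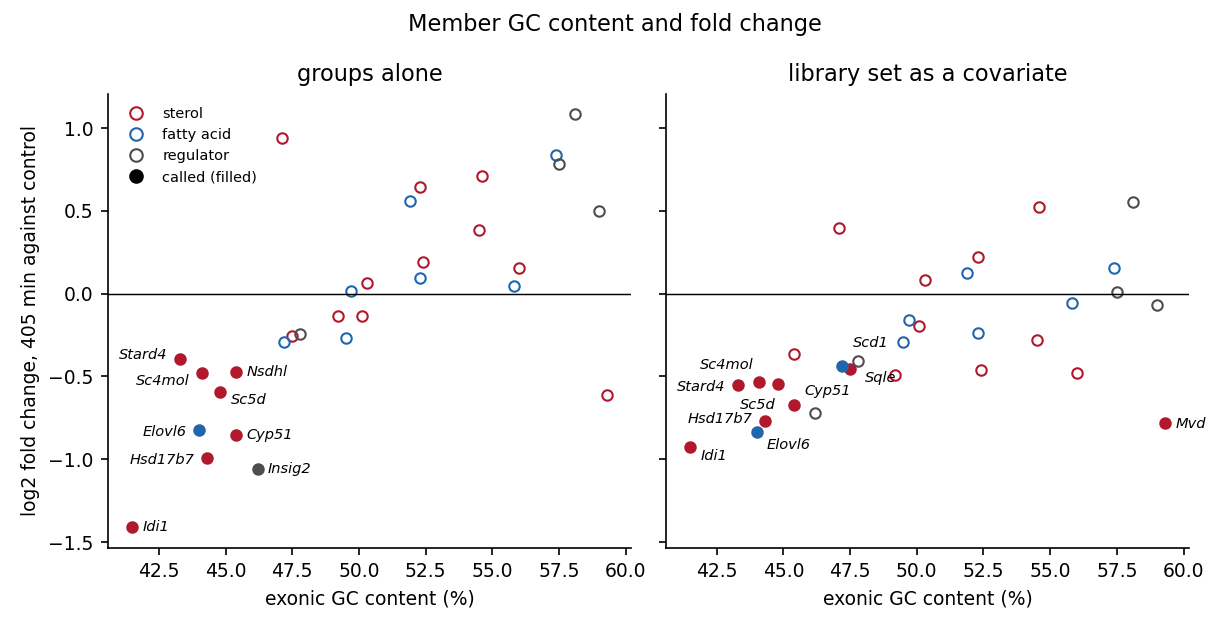
Log2 fold change at 405 min against control by exonic GC content (%) for the 31 members, for groups alone (left) and with the library set as a covariate (right), with filled points for members called lower. On the left all 9 filled points lie between 41.5% and 46.2% GC, and on the right Mvd, at 59.3% GC, is also filled.

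Idi1, Cyp51, Hsd17b7 and Elovl6 were called lower in both fits, with the GC offset and in all 15 fits that left out a library, and Sc5d in all of these except the fit with the GC offset. Sc5d was also not called with the compared groups only or in the fits with a term for replicate number. Fits within a library set leave a lone sample in a compared group and are not counted here. The promoters shown are those of the members called lower in both fits for which a promoter was matched, which adds Sc4mol. Sc4mol was not called with the GC offset. Each run is the 250 bases before the annotated start from RefSeq on the GRCm38.p6 build, printed on the strand of the gene, and these coordinates are not on the mm9 build of the count tables. Capitals mark CCAAT or its complement ATTGG, the motif of NF-Y, and CACGTG, an E-box. The windows were chr13:8885356-8885605 (plus strand) for Idi1, chr5:4104698-4104947 (minus strand) for Cyp51, chr8:64733579-64733828 (minus strand) for Sc4mol, chr1:169969206-169969455 (minus strand) for Hsd17b7, chr9:42264301-42264550 (minus strand) for Sc5d and chr3:129532136-129532385 (plus strand) for Elovl6.
Idi1: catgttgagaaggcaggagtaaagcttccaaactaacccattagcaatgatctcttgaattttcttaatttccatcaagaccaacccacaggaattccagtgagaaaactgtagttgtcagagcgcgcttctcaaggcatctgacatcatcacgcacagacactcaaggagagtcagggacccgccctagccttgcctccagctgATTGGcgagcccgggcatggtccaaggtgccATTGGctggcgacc
Cyp51: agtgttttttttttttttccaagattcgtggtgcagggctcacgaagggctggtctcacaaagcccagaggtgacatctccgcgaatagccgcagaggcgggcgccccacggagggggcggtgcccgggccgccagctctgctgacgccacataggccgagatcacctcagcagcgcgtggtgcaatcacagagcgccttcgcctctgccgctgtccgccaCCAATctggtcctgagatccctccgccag
Sc4mol: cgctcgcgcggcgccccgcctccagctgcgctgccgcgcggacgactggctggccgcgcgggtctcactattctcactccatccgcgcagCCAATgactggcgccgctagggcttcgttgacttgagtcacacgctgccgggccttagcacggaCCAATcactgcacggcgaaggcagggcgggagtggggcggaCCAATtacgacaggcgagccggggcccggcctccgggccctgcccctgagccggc
Hsd17b7: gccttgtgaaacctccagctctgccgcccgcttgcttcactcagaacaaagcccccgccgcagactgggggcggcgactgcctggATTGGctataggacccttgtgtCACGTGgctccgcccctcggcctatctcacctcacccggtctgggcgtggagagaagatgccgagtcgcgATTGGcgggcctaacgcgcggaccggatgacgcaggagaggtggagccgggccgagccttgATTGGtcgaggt
Sc5d: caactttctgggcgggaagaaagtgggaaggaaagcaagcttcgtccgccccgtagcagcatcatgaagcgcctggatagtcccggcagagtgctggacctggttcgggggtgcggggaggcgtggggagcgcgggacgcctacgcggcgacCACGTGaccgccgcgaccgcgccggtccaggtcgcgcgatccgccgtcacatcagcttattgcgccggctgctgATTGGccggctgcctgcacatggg
Elovl6: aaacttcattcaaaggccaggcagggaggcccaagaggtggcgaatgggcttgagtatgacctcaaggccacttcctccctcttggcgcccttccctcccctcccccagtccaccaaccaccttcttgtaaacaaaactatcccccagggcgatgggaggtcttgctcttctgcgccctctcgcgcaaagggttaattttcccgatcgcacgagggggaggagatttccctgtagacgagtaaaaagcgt

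Idi1 held 2 CCAAT motifs, 45 and 14 bases before the start, Cyp51 held 1 (29 bases before), and Sc4mol held 3. Hsd17b7 held 3 CCAAT motifs and 1 E-box, Sc5d held 1 of each, and Elovl6 held neither. Promoters were matched for 25 of the 32 members (33 promoters, since some genes have several starts), and not for Fdps, Fdft1, Sqle, Stard4, Scd1, Scd2 and Fads1. In the 250-base windows, searched on both strands, CCAAT was in 20 of the 33 member promoters (60.6%) and in 33.8% of all 32851 promoters. CACGTG was in 5 (15.2%) and 6.02%. TCACNCCAC, a form of the sterol regulatory element, was in 1 (Hmgcs1) and in 1.05% of all promoters. These matches describe letters in the window only. Mvk, which did not pass the test at 405 min in either fit, held 5 CCAAT motifs, and Elovl6, which fell in both, held 0.

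Other genes of the same pathways were read from a list of 23, of which 19 passed the filter on low counts (Acacb, Nr1h2, Nr1h3 and Abcg1 did not). No listed gene was called at 45 min. At 135 min 1 was higher, Lpin1, a phosphatidate phosphatase of glycerolipid synthesis, with a log2 fold change of 1.08 (SE 0.18, adjusted p = 0.00717), and of 1.17 (SE 0.14, adjusted p = 8.83e-05) with the covariate. At 405 min 2 were higher and 5 lower, and the median of the 19 was -0.14. Me1, the malic enzyme that supplies NADPH for fatty acid synthesis, rose by 0.94 on the log2 scale (SE 0.11, adjusted p = 9.73e-05), and the rise passed with the covariate (adjusted p = 1.49e-05). Lpin1 remained higher (0.68, SE 0.17, adjusted p = 0.0143), and was so with the covariate (0.47, SE 0.15, adjusted p = 0.0451).

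The genes of that list that fell at 405 min were Mylip, Mbtps2, Acsl4, Acsl3 and Elovl5. Mylip, a ubiquitin ligase that acts on lipoprotein receptors, had a log2 fold change of -1.75 (SE 0.32, adjusted p = 0.00243), and of -1.37 (SE 0.26, adjusted p = 0.00241) with the covariate. Mbtps2, the protease that makes the last cut releasing SREBP, had -1.04 (SE 0.19, adjusted p = 0.00223) and -0.81 (SE 0.17, adjusted p = 0.00444). The acyl-CoA synthetase Acsl3 had -0.56 (SE 0.13, adjusted p = 0.00987) and -0.49 (SE 0.13, adjusted p = 0.0242). Acsl4 and the elongase Elovl5 did not pass with the covariate (adjusted p = 0.108 and 0.149).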

How the data were processed

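Poly(A) RNA of 15 samples was sequenced. The authors aligned reads to mm9 and counted them against RefSeq on DNAnexus, and the aligner is not given in the sources used here. Their deposited read counts were expected counts (8.71% to 15.6% of the genes of a library were not whole) and were rounded. The authors also deposited RPKM, which gave levels per length, and 2 further columns, a Z score and a root-mean-square scaled RPKM, which were not used. Total counts of 6652539 to 30258404 set the precision. The 22 replicate pairs differed by a chi-square of 12 to 274 per degree of freedom, so none was counted as a duplicate.

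The 10276 of 20207 genes whose lowest count was at least 1 were tested in R 4.3.3 with edgeR 4.0.16. Dropping genes that had a count of 0, edgeR and a threshold of 0.05 on the adjusted p (Benjamini-Hochberg) followed the methods of the study. TMM factors and 1 quasi-likelihood fit with a term for group over all 15 samples were chosen here. The SE was the log2 fold change over the square root of F. The fit of groups alone was checked on simulated counts. Those had no library set or GC effect and less spread than these data, so the check does not cover such effects. Exonic GC content came from the NCBIM37 genome, which is mm9, with GENCODE vM1 exons, and the library set split the GC slopes at their largest gap. That gap was close in size to the next, beside control replicate 3. Alternatives were DESeq2 1.42.0 as a test and for scaling, other filters, the compared groups alone, unrounded counts, the library set as a covariate or within sets, a replicate block and leaving out each library. A GC offset and the covariate fit without control replicate 3 were chosen after seeing the data. Members called in any of the 4 comparisons, up to 12 by size of change, were given in every sample, and the others by group mean and range. Values of some other members were added after they were seen. The members and lists were chosen with earlier results of these data known. Promoters came from RefSeq (GRCm38.p6). The values of a listed pathway gene are not reported here.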

Additional observations from a re-analysis of the deposited data

Results flagged for a closer look

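In the controls, Pmvk was low in replicate 3 (2.86 log2 CPM), Mvd was low in the same library (4.80 log2 CPM) and Scd2 was high in it (11.42 log2 CPM). Cyp51 was low in control replicate 2 (8.39 log2 CPM), the control of library set 2. Acly was low in replicate 3 at 405 min (8.13 log2 CPM), the library of set 1 at that time. Each of these samples lay apart from the rest of its group by Dixon's criterion, which was applied to 62 groups and passed in 5, where chance gives about 3.1. Control replicate 3 was the shallowest library and held the lowest level of Srebf1 (2.61 CPM) and Srebf2 (8.72 CPM) of all 15.

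Expression differed between the samples at 405 and 135 min, by the edgeR test for groups alone, for Cyp51 (log2 fold change -0.83), Hsd17b7 (-0.85), Sc5d (-0.67) and Elovl6 (-0.67). The samples at 135 min were all of library set 1 and those at 405 min mostly of set 2. With the library set as a covariate Cyp51 and Elovl6 remained called. Sc5d was then at -0.60 (adjusted p = 0.0747 by edgeR) and Hsd17b7 at -0.57 (adjusted p = 0.128 by edgeR). With the GC offset Cyp51 and Hsd17b7 remained called, and Sc5d and Elovl6 did not.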

How the results depend on the processing

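At 135 min, 1 member was higher and 1 lower with the set covariate (all genes 3.06% and 4.88%). The same held within library set 1 (2.08% and 3.48%) and with the replicate block and library set together (2.29% and 3.76%). The counts were 2 and 2 with the covariate and without control replicate 3 (4.72% and 5.68%), and 0 and 1 with DESeq2 (1.57% and 2.62%). At 405 min, DESeq2 called 2 members higher (6.45%, against 14% of all genes). The 9 lower members became 4 with the compared groups only (all genes 4.48%), 2 within library set 1 (0.907%), where 1 sample at 405 min was assumed to vary like the others, and 0 within library set 2 (1.87%), with 1 control. Calls over all genes dropped too. Leaving out a library gave 0 to 7 members higher and 5 to 10 lower at 405 min (all genes 4.06% to 24.5% and 5.14% to 23.9%). At 135 min it gave 0 to 0 higher and 0 to 1 lower (0.194% to 1.12% and 0.214% to 1.77%). At 405 against 135 min it gave 0 to 1 higher and 0 to 6 lower (0.185% to 7.34% and 0.224% to 6.03%). For 405 against 135 min the compared groups alone gave 4 higher and 7 lower (all genes 15.4% and 10.9%), library set 1 alone gave 0 lower (0%), and the covariate without control replicate 3 gave 9 lower. Over all genes 5.44% were lower in the last of these fits. The share of higher among called members at 405 min was 0% for groups alone and became 16.7% with DESeq2 (all genes 14% higher and 19.2% lower). It was 46.7% without control replicate 2 (all genes 24.5% higher and 23.9% lower) and 36.4% without replicate 3 at 405 min (14.6% and 19.9%). For 405 against 135 min that share was also 0% and became 36.4% with the compared groups only and 14.3% without control replicate 3. In the latter fit 5.92% of all genes were higher and 5.62% lower.

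The replicate numbers were not used as pairs in the main fit. The correlation of same-numbered samples averaged -0.11 over 19 pairs, of which 4 were over 0.1, and that of different-numbered samples averaged 0.028. With the library set removed the averages were 0.034 and -0.01. The averages moved with the set, so they do not settle whether the numbers pair the samples. With the replicate block 4 members were lower at 405 min (all genes 4.54%) and 0 at 405 against 135 min (0.0973%). With the block and library set 1 was lower in the latter comparison (1.15%).

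Fads1 turned to a called decrease with the covariate and without control replicate 3, by -0.32 at 405 min against control and -0.46 against 135 min. Fasn turned likewise against 135 min (-0.67), and Fads2 did so with the GC offset (-0.50, 405 min against control). The cause was not tested. Within library set 2 no sample at 135 min was present, so that comparison could not be made there. Time and library set partly coincide, and depth limits Tm7sf2, Ebp, Srebf1 and Dhcr7, whose lowest counts were 19, 62, 15 and 27.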
